A study of Homo sapiens with 19 samples.

Results

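Of the 58051 human genes in the deposited tables, 8 listed genes of the red cell membrane were followed by symbol across all 5 groups of libraries. The 4 surface members are GYPB and GYPC (glycophorins B and C), RHAG (the Rh-associated glycoprotein) and KEL (the Kell blood group endopeptidase). The 4 skeleton members are ANK1 (ankyrin 1), EPB41 (protein 4.1), SPTB (erythroid beta spectrin) and DMTN (dematin). RNA came from untreated K562, an established human erythroleukaemia line, as whole cells, cytoplasm, nuclear wash and nucleus, each with 4 libraries depleted of rRNA. The nuclear wash, which the labels name without describing it, was also sequenced in 3 libraries made without that depletion. All 19 libraries carry the same cell line and no treatment, and nothing in the labels ties a replicate to its own culture. P-values here rest on the spread among libraries, part or all of which may be technical.

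Mature red cells are held in shape by a spectrin network under the plasma membrane. Ankyrin and protein 4.1 fasten that network to proteins that span the lipid bilayer, glycophorin C and the Rh complex among them. Proteins that span the bilayer are made on ribosomes bound to the endoplasmic reticulum, whose membrane is continuous with the outer membrane of the nuclear envelope, whereas skeleton proteins are made on cytosolic ribosomes. K562 cells carry an erythroid programme, and all 10 erythroid markers examined (globins, GATA1, TAL1, KLF1, NFE2, GFI1B and TFRC) passed the filter on low counts.

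The surface members differ in where their coding sequence first encodes a strongly hydrophobic stretch, the kind that enters the membrane. A stretch was a window of 19 codons whose mean Kyte-Doolittle hydropathy, a residue scale on which high values are hydrophobic, was at least 1.6. The starts of 3 coding sequences are printed to show this, 5′ to 3′ in the direction of the mRNA, with the first such window in capitals. They were read from the GENCODE 29 transcripts on GRCh38. RHAG reaches its window at codons 6 to 24, KEL at codons 48 to 66 and GYPC at codons 59 to 77.
GYPC: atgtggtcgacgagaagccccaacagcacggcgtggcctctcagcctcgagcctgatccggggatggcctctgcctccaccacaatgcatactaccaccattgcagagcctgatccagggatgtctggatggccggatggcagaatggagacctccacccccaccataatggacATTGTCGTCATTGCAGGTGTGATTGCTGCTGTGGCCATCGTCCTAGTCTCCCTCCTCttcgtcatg
RHAG: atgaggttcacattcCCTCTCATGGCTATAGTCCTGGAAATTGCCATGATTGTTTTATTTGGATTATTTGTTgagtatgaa
KEL: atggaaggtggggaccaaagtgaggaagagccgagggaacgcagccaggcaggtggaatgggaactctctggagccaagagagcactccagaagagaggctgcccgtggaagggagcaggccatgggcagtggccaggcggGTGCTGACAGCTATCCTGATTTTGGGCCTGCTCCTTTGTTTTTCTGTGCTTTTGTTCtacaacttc
The RHAG coding sequence holds 5 separate windows over 409 codons, whereas GYPC (128 codons) and KEL (732 codons) hold 1 each. GYPB, with 91 codons, has its first of 3 at codons 5 to 23. Among the skeleton members ANK1, EPB41 and DMTN hold none, and SPTB holds 1 that just passes at a mean of 1.70.

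The members lie on 7 chromosomes of GRCh38. GYPB (ENSG00000250361) is at chr4:143996104-144019345 on the minus strand, GYPC (ENSG00000136732) at chr2:126655933-126696670 on the plus strand, RHAG (ENSG00000112077) at chr6:49605158-49636884 on the minus strand and KEL (ENSG00000197993) at chr7:142941114-142962681 on the minus strand. ANK1 (ENSG00000029534) is at chr8:41653220-41896762 on the minus strand, EPB41 (ENSG00000159023) at chr1:28887091-29120046 on the plus strand, SPTB (ENSG00000070182) at chr14:64746283-64879907 on the minus strand and DMTN (ENSG00000158856) at chr8:22048995-22082527 on the plus strand. All 8 passed the filter on low counts in both fits, so none was too low to test. DMTN and GYPB were the thinnest, with 9 to 22 exon counts of DMTN per nuclear library and 29 to 103 of GYPB per depleted wash library. GYPB has near-identical neighbours in a glycophorin cluster, so reads shared between copies make its level uncertain. SPTB shares 3408 exon bases with PLEKHG3 on the opposite strand, which had 0 to 2 counts in any library, EPB41 shares 619 with TMEM200B (19 to 229 counts) and ANK1 shares 842 with AC113133.1 (2 to 89 counts). The strand setting of the counting is not given in the sources used here.

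The exon counts of a library came to between 1373755 and 7955415 with depletion and between 923464 and 1801293 without. Markers of other cell types were partly present: 6 of 14 passed the filter, and CDH5 and PF4 were at 0 in all 16 depleted libraries. The 14 markers summed to 231 to 282 CPM (exon counts per unit of library size, TMM-adjusted over the 16 depleted libraries) in the wash. They summed to 78.0 to 109.9 CPM in the cytoplasm and 71.1 to 80.5 CPM in the nucleus. The part of this in the members' values was not tested. Of the 6 that passed, EPCAM ranged from 34.0 to 180.3 CPM over these libraries, LYZ from 4.48 to 69.9 and PECAM1 from 10.4 to 47.25. EPCAM averaged 149 CPM in the wash, above GYPC (109) and KEL (82.9) there. Erythroid markers summed to 4427 to 5539 CPM in the cytoplasm, 3452 to 4425 in the wash and 1394 to 1633 in the nucleus. Each level is a share of the reads of a bulk fraction, so fewer cells carrying a transcript and less of it per cell cannot be told apart.

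RHAG, the partner that Rh antigens need to reach the surface, was highest in the nuclear wash. Its wash libraries, in the order of replicates 1 to 4, stood at 421, 475, 575 and 509 CPM. The cytoplasm gave 161, 170.0, 179 and 168 CPM, the nucleus 164, 120.3, 188 and 149 CPM and whole cells 161, 179, 180.1 and 174 CPM. Every wash library therefore lay above every library of the other 3 groups, with a mean of 495 ± 64.6 CPM (SD, n = 4) against 173 ± 8.65 in whole cells, 2.85 times as much. The cytoplasm (169.7 ± 7.21), nucleus (155 ± 28.5) and whole cell overlapped library by library and could not be ordered.

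KEL, a membrane zinc endopeptidase, was lowest in the cytoplasm, with 28.4, 35.2, 27.5 and 25.0 CPM in its 4 libraries. Whole cells held 59.5, 65.4, 49.0 and 71.4 CPM, the wash 89.8, 73.2, 84.2 and 84.5 CPM and the nucleus 109.8, 108, 95.2 and 107 CPM. Neighbouring groups in this order did not overlap, and the means ran from 29.02 ± 4.38 CPM in the cytoplasm to 105 ± 6.68 CPM in the nucleus (SD, n = 4).

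GYPC, the glycophorin bound to protein 4.1, had the opposite order. The 4 cytoplasmic libraries held 209.7, 190.2, 244 and 256 CPM and the 4 nuclear ones 19.3, 24.4, 30.5 and 28.0 CPM. Wash libraries gave 99.0, 77.2, 132 and 129 CPM and whole cells 153, 107, 124 and 179 CPM. The last pair of groups overlapped, while the cytoplasm (225 ± 30.4 CPM, SD, n = 4) stood above all other libraries and the nucleus (25.5 ± 4.86 CPM) below them. The wash mean was 4.28 times the nuclear mean.

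GYPB, which carries the S and s antigens, followed KEL at a lower level. Cytoplasmic libraries held 5.75, 9.02, 7.80 and 8.59 CPM, wash libraries 10.7, 16.03, 11.4 and 11.2 CPM, nuclear libraries 21.1, 18.9, 18.8 and 23.3 CPM and whole cells 13.2, 15.4, 13.6 and 11.6 CPM. The nucleus was above and the cytoplasm below all other libraries, and the wash and whole cells overlapped.

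**Figure D1:**
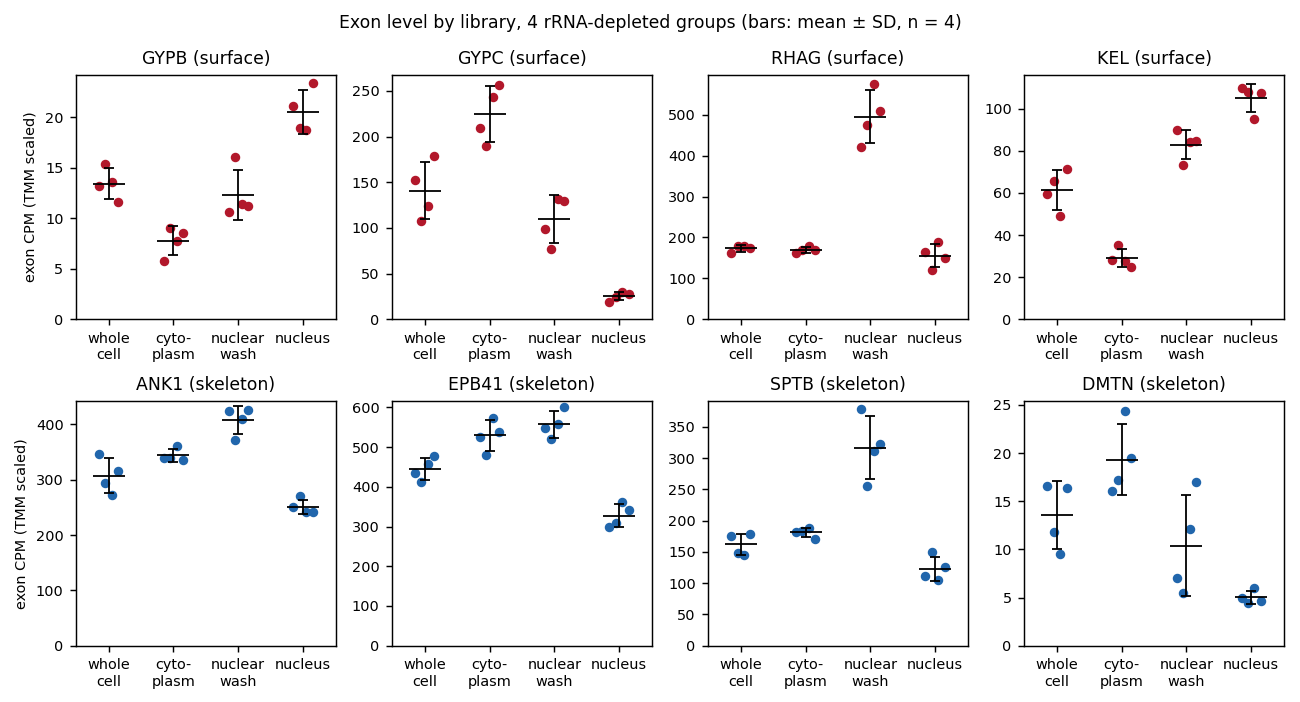
Exon level of each member in CPM (y axis, TMM scaled, starting at 0, a separate scale per panel) in the 4 rRNA-depleted groups (x axis), 1 point per library, with bars for mean ± SD (n = 4). RHAG, SPTB and ANK1 stand highest in the wash, and KEL and GYPB lowest in the cytoplasm. GYPC, ANK1 and EPB41 are lowest in the nucleus. RHAG, SPTB and DMTN also have their lowest means there, but overlap another group.

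Among the skeleton members SPTB, the beta chain of the spectrin tetramer, was highest in the wash. Its wash libraries stood at 378, 256, 312 and 323 CPM, its cytoplasmic ones at 181, 184, 188 and 171 CPM and its nuclear ones at 111, 149, 106 and 126 CPM. Whole cells held 175, 149, 145 and 179 CPM, which overlapped both cytoplasm and nucleus. The wash mean of 317 ± 50.1 CPM (SD, n = 4) was 1.75 times the cytoplasmic mean.

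ANK1, which joins spectrin to the anion exchanger and the Rh complex, was spread more evenly. It stood at 424, 372, 410.3 and 425 CPM in the wash, 339, 340.0, 361 and 336 CPM in the cytoplasm, 347, 294, 272 and 317 CPM in whole cells and 250.1, 270.1, 241 and 242 CPM in the nucleus. The wash libraries were all above and the nuclear libraries all below the rest, with a ratio of 1.19 between the wash and cytoplasmic means. EPB41, which joins spectrin and actin to GYPC, had 548, 520.2, 559.6 and 602 CPM in the wash and 526, 481, 574 and 538 CPM in the cytoplasm, which overlapped. Its whole-cell libraries held 434, 411, 458 and 477 CPM and its nuclear ones, the lowest, 299, 308, 361 and 341 CPM.

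DMTN, an actin-bundling protein of the spectrin junctions, was the weakest skeleton member. The cytoplasm held 16.1, 17.2, 24.4 and 19.5 CPM, whole cells 16.6, 11.8, 9.55 and 16.4 CPM, the wash 6.99, 5.45, 12.1 and 17.0 CPM and the nucleus 4.93, 4.47, 5.98 and 4.67 CPM. Each group overlapped its neighbour in this order, and the cytoplasm and nucleus did not overlap. In the wash, replicates 3 and 4 stood above replicates 1 and 2, a split that follows the prefixes of the column names, 1 for replicates 1 and 2 and 2 for replicates 3 and 4.

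Levels of different genes were compared per kilobase of annotated exon. On that scale RHAG led in the wash at 184 CPM per kilobase, followed by ANK1 (37.8), GYPC (28.7) and EPB41 (27.9), then SPTB (21.4), KEL (20.8), GYPB (6.59) and DMTN (2.32). In the cytoplasm RHAG (63.1) and GYPC (59.0) led, ahead of ANK1 (31.9) and EPB41 (26.5). In the nucleus RHAG (57.7) was followed by KEL (26.4) and ANK1 (23.2), while GYPC was down to 6.70. The annotated length counts every listed exon, including those of transcripts that K562 may not use, which lowers the value of genes with many transcripts such as EPB41.

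The first comparison set the nucleus against the cytoplasm. All 4 skeleton transcripts were lower in the nucleus, and the surface transcripts went in different directions. By the quasi-likelihood test of edgeR with Benjamini-Hochberg adjustment over 15940 genes, 7 of 8 members were called, 2 higher and 5 lower, where 76.8% of all tested genes were called (39.3% higher and 37.5% lower), so this count is near the background. KEL was higher by a log2 fold change of 1.85 (SE 0.136, adjusted p = 9.93e-11) and GYPB by 1.37 (SE 0.18, adjusted p = 6.2e-07). GYPC was lower, at -3.13 (SE 0.202, adjusted p = 1.41e-11), below all but 2.01% of the tested genes. RHAG was not called, at -0.13 (SE 0.129, adjusted p = 0.375).

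On the skeleton side DMTN fell furthest, at -1.92 (SE 0.312, adjusted p = 1.01e-05). EPB41 changed by -0.69 (SE 0.106, adjusted p = 4.92e-06), SPTB by -0.56 (SE 0.133, adjusted p = 0.000703) and ANK1 by -0.46 (SE 0.104, adjusted p = 0.000471). The libraries of the 4 skeleton genes did not overlap between both fractions. How often this held over all genes is not given here. The median log2 fold change was 0.62 over the surface members, -0.63 over the skeleton members and 0.03 over all tested genes. The smaller skeleton differences depended on scaling: without a composition factor, which moved the median of all genes to 0.64, EPB41 was at -0.07 and no longer called, and ANK1 (0.16) and SPTB (0.05) turned positive without being called. RHAG had no fixed direction, from -0.75 with spike-in library sizes to 0.49 without a composition factor, called in both.

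The nuclear wash was then set against the cytoplasm, and here 3 of the 4 surface transcripts were higher. RHAG and KEL rose together, GYPB rose less, and GYPC fell, while of the skeleton members SPTB rose, DMTN fell and ANK1 and EPB41 did not pass. In all 6 of 8 members were called, 4 higher and 2 lower, against 44.2% of all tested genes (22.8% higher and 21.4% lower). RHAG had a log2 fold change of 1.54 (SE 0.129, adjusted p = 9.77e-09) and KEL of 1.51 (SE 0.134, adjusted p = 2.22e-08). GYPB was at 0.67 (SE 0.177, adjusted p = 0.0042) and GYPC at -1.04 (SE 0.177, adjusted p = 7.94e-05). RHAG exceeded 91.4% and KEL 91.0% of the tested genes, whereas GYPC exceeded 3.75% of them.

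SPTB rose by 0.81 (SE 0.131, adjusted p = 4.55e-05). DMTN fell, at -0.88 (SE 0.258, adjusted p = 0.00854), although 1 of its wash libraries lay within the cytoplasmic range. ANK1 stood at 0.24 (SE 0.103, adjusted p = 0.0594), with all 4 wash libraries above all 4 cytoplasmic ones, and EPB41 at 0.07 (SE 0.105, adjusted p = 0.597). The median was 1.09 over the surface members, 0.16 over the skeleton members and 0.05 over all genes. These are differences relative to the typical gene. Yeast spike-ins took 3.14 to 4.14% of exon counts in the depleted wash and 0.405 to 0.457% in the cytoplasm. With spike-in library sizes the median of all genes was -3.10, RHAG was at -1.64, KEL at -1.68, GYPB at -2.46, SPTB at -2.38 and GYPC at -4.24. How much spike-in each sample received is not given in the sources used here, so these values cannot be read as amounts of RNA. GYPB was called in the libraries of prefix 1 alone (0.88) and not in those of prefix 2 (0.47, adjusted p = 0.113), and ANK1 was called by DESeq2 (adjusted p = 0.0102) and without nuclear wash replicate 2 (adjusted p = 0.0446).

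**Figure D2:**
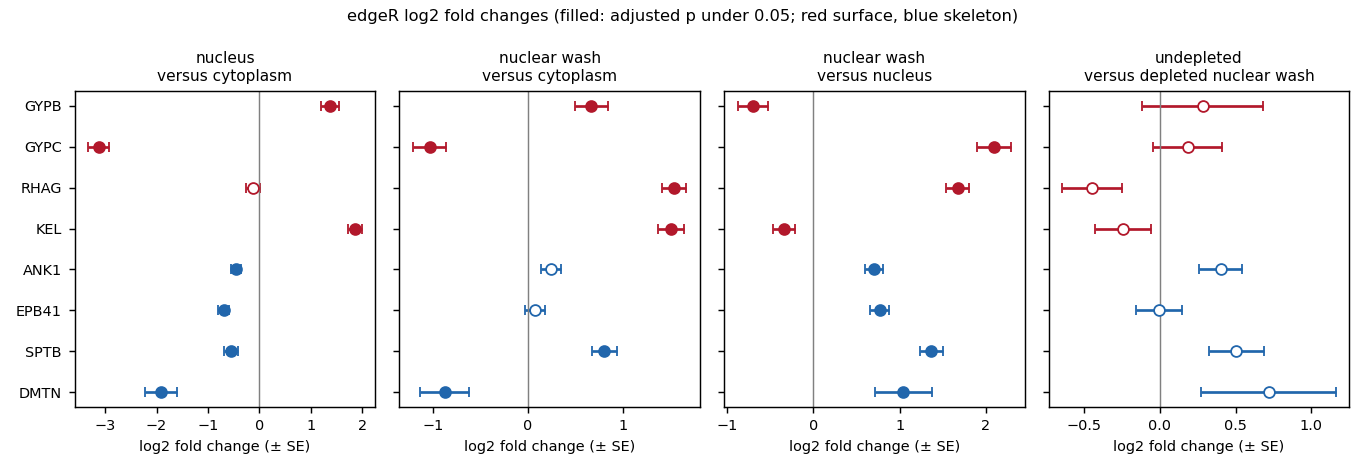
Log2 fold change from edgeR (x axis, ± SE) of each member (y axis) in the 4 comparisons, red for surface and blue for skeleton members, filled where the adjusted p is under 0.05. In the wash against the cytoplasm RHAG (1.54) and KEL (1.51) stand furthest to the right and GYPC (-1.04) furthest to the left; no point is filled in the comparison of undepleted with depleted wash.

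Against the nucleus, the wash held more of 6 members and less of 2. GYPC (2.09 (SE 0.199, adjusted p = 1.16e-08)) and RHAG (1.67 (SE 0.131, adjusted p = 7.13e-10)) were higher, and GYPB (-0.70 (SE 0.177, adjusted p = 0.00141)) and KEL (-0.34 (SE 0.131, adjusted p = 0.0233)) were lower. All 4 skeleton members were higher, SPTB by 1.36 (SE 0.135, adjusted p = 1.86e-08), DMTN by 1.04 (SE 0.332, adjusted p = 0.0083), EPB41 by 0.77 (SE 0.107, adjusted p = 2.07e-06) and ANK1 by 0.70 (SE 0.104, adjusted p = 5.26e-06). All 8 were thus called, where 72.1% of all tested genes were (36.7% higher and 35.4% lower). DMTN alone had libraries that overlapped between both groups. The share of all genes whose exon levels did not overlap is not given here. The median was 0.66 over the surface members, 0.90 over the skeleton members and 0.06 over all genes. RHAG and SPTB were the members called higher in the wash than in both other fractions by edgeR. The wash libraries of ANK1 also lay above those of both, but its difference from the cytoplasm did not pass. The share of all tested genes that were higher in the wash than in both is not given here, so a peak in the wash cannot be called unusual.

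Not all of these calls held, and the 6 higher values depended on scaling. With spike-in library sizes, where the median of all genes was -2.47, GYPC was at -0.50, RHAG at -0.89, SPTB at -1.18, DMTN at -1.57, EPB41 at -1.79 and ANK1 at -1.84. Without a composition factor 5 of the 8 were called, ANK1, EPB41 and DMTN no longer among them. Over all genes 11270 were called there, 25.4% of them higher, against 11490 in the main fit, 50.9% of them higher. With gene-body counts 4 were called, where GYPC, ANK1 and DMTN no longer passed and EPB41 turned to -0.19 without passing. Over all genes 12632 were called on those counts, 52.3% of them higher. KEL was no longer called without nuclear wash replicate 2 (-0.26, adjusted p = 0.1), 3 (adjusted p = 0.0533) or 4 (adjusted p = 0.053), within prefix 2 (adjusted p = 0.128) or with no low-count filter (adjusted p = 0.568). Within prefix 1 DMTN was at 0.36 (adjusted p = 0.388) and GYPB at -0.51 (adjusted p = 0.0959), against 1.38 and -0.87 within prefix 2, both called.

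The tables also give counts over whole gene bodies, so the intronic share of each member could be measured as the part of its gene-body counts that lay outside exons. In the nucleus most of the reads of every member were intronic, from 73.0% ± 2.504 (SD, n = 4) for SPTB to 91.3% ± 0.796 for GYPC. In the cytoplasm the members were far apart. GYPC had 6.62, 6.54, 4.82 and 4.54% in its 4 libraries and RHAG 18.4, 15.3, 12.7 and 14.8%. KEL had 51.0, 46.5, 40.5 and 45.6%, a level that GYPB shared with a mean of 43.0% ± 5.50 and that no other member came near. The next was ANK1 at 27.0% ± 2.87, then SPTB (15.5%), EPB41 (13.1%) and DMTN (8.56%). All counts of a cytoplasmic library pooled gave 9.78 to 12.3%. This pooled value is weighted to abundant genes and is not a typical gene's share. Mitochondrially encoded and rRNA genes held 21.84 to 27.26% of the exon counts of these libraries. KEL and GYPB, the members with the most intronic cytoplasmic reads, are also those whose exon level was higher in the nucleus.

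Against the cytoplasm, 4 of the 8 members had a higher intronic share in the wash and 4 did not pass. The intronic share of RHAG was 16.2, 19.8, 10.4 and 10.6% in the 4 libraries, with a mean of 14.2% ± 4.60 against 15.3% ± 2.37 in the cytoplasm, a difference of -1.08 percentage points (exact two-sided permutation test, p = 0.686). KEL (1.81 points, exact p = 0.8), ANK1 (3.68 points, exact p = 0.2) and SPTB (2.72 points, exact p = 0.457) did not pass either. GYPC rose from 5.63% to 28.5%, with 29.4, 37.0, 22.8 and 24.7% in its wash libraries. GYPB rose by 22.1 points, DMTN by 20.1 and EPB41 by 15.8. For these 4 the wash and cytoplasmic libraries did not overlap (exact permutation p = 0.0286, the smallest that 4 libraries against 4 can give; adjusted p = 0.0429 over 30 tests of members and pairs of groups). Those 30 tests include every test against the nucleus, all at the same smallest p, which lowers the adjusted p of these 4. Adjusted within wash against cytoplasm alone, the 4 would not pass. Without any 1 of the wash or cytoplasmic libraries none of the 4 would be called either. With 3 libraries against 4 the exact permutation p cannot go below 0.0571. Of all genes with introns and enough counts, 60.2% had wash libraries above all cytoplasmic ones and 1.58% below, so the members' count is near the background. Pooled over all genes, the intronic share was 16.9 to 25.0% in the depleted wash. It was higher in prefix 1 (21.0 and 25.0%) than in prefix 2 (17.6 and 16.9%). The part of this in the members' values was not tested.

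All 8 members had a higher intronic share in the nucleus than in the cytoplasm, by 37.1 points for KEL to 85.7 for GYPC, and a lower share in the wash than in the nucleus (each exact permutation p = 0.0286, adjusted p = 0.0429). Most genes did the same: of all genes with introns and at least 20 gene-body counts in every library, 87.7% had nuclear libraries above all cytoplasmic ones (2.15% below) and 81.6% had wash libraries below all nuclear ones (1.59% above). The share pooled over all genes of a nuclear library was 68.0 to 72.1%. The wash was nearest to the nucleus for GYPB, -24.8 points apart, and furthest for RHAG, -66.5 points apart.

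**Figure D3:**
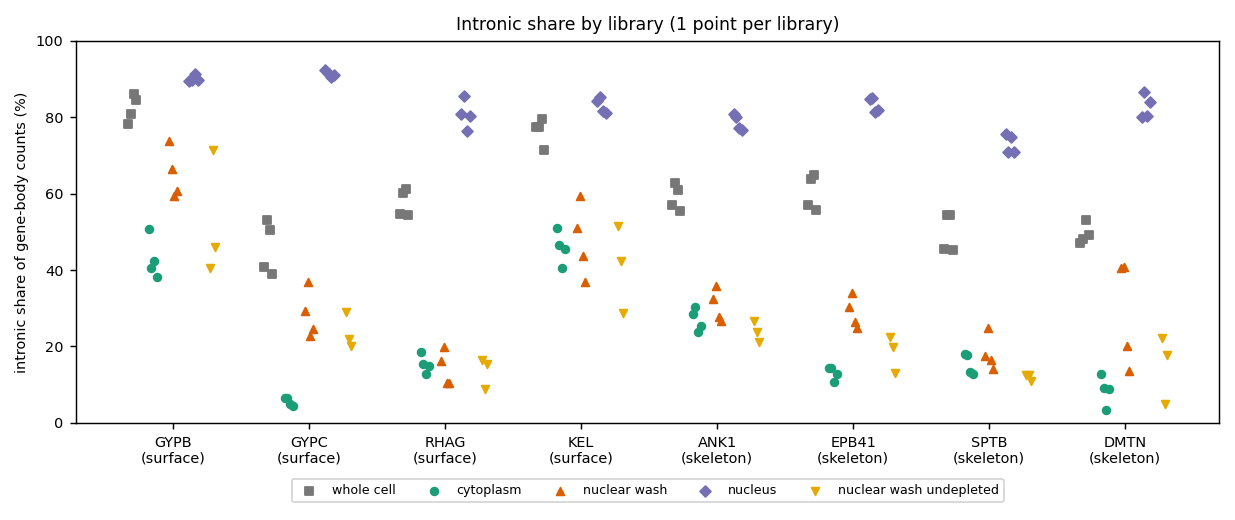
Intronic share of gene-body counts in percent (y axis, 0 to 100) for each member (x axis), 1 point per library, coloured by group. Nuclear libraries (purple) lie at 70.8% or more for every member, and in the wash (orange) RHAG lies within or near its cytoplasmic points (green) while GYPC lies well above them.

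Ratios of exon counts between members within a library do not depend on how libraries are scaled. Of the 28 pairs of members, 22 had ratios that did not overlap between nucleus and cytoplasm, 22 between wash and cytoplasm and 19 between wash and nucleus. Over all pairs of tested genes with a count in every library, 67.4%, 36.3% and 57.1% of the pairs did not overlap in these comparisons. The members' ratios share genes, so the pairs are not independent of each other. The log2 ratio of GYPC to RHAG was 0.40 in the cytoplasm (range 0.16 to 0.60), -2.20 in the wash (-2.62 to -1.98) and -2.61 in the nucleus (-3.09 to -2.30). Exon counts of GYPC exceeded those of RHAG in every cytoplasmic library, and those of RHAG exceeded those of GYPC in every library of both other fractions. These counts are not adjusted for exon length (3812 bases for GYPC and 2691 for RHAG). Per kilobase the mean of RHAG was above that of GYPC in the cytoplasm too, so only the shift of the ratio between fractions is read here. RHAG to KEL kept its ratio between cytoplasm (2.56) and wash (2.57), which overlapped, and stood at 0.55 in the nucleus.

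Inside the skeleton, the wash held more SPTB relative to ANK1 and EPB41 than the cytoplasm or nucleus did. The log2 ratio of ANK1 to SPTB was 0.93 in the cytoplasm (0.89 to 0.98), 1.04 in the nucleus (0.86 to 1.19) and 0.38 in the wash (0.17 to 0.54). EPB41 to SPTB was 1.55 in the cytoplasm, 1.42 in the nucleus and 0.83 in the wash (0.54 to 1.03). In both ratios the wash libraries lay below all those of the cytoplasm and nucleus. Summed over each class, surface counts per skeleton count were 0.543 ± 0.0673 (SD, n = 4) in the wash, 0.402 ± 0.0206 in the cytoplasm, 0.435 ± 0.0464 in the nucleus, 0.419 ± 0.0177 in whole cells and 0.371 ± 0.0830 (SD, n = 3) in the undepleted wash. The wash libraries (0.457 to 0.621) were all above the cytoplasmic ones (0.382 to 0.430) and overlapped the nuclear ones (0.371 to 0.472). RHAG made up 1144, 3051, 3225 and 2490 of the 1686, 4120, 4502 and 3590 surface counts of the wash libraries. In the cytoplasm it made up 814, 1187, 1217 and 1079 of 2043, 2824, 3115 and 2934. The summed ratio thus follows RHAG in large part and does not describe the surface members as a class. The log2 ratio to ANK1 was lower in wash than in cytoplasm for GYPC (-1.93 against -0.62) and higher for KEL (-2.30 against -3.58).

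**Figure D4:**
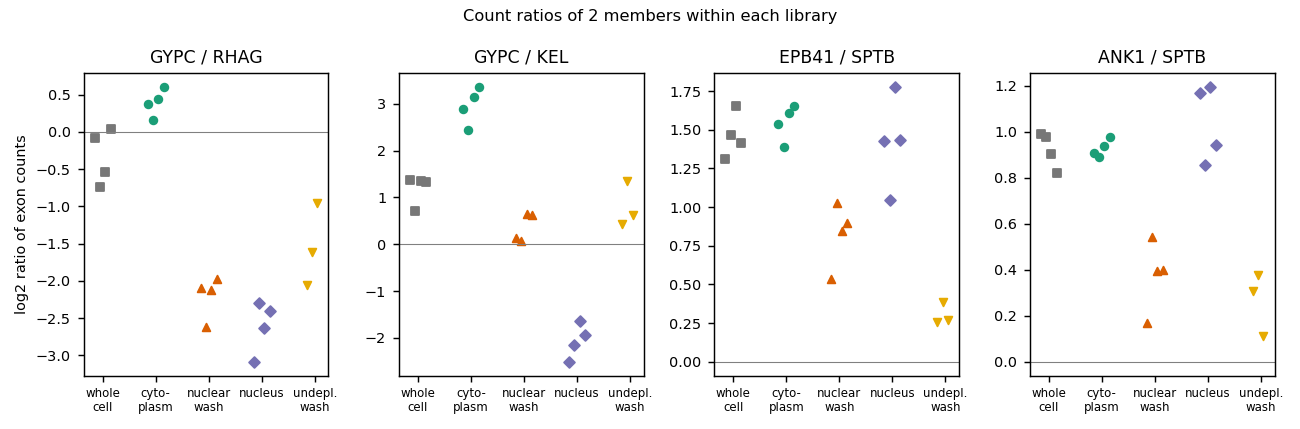
Log2 ratio of the exon counts of 2 members within each library (y axis, a separate scale per panel, grey line at equal counts) for the 5 groups (x axis), 1 point per library. Counts are not adjusted for exon length, so the grey line does not mark equal numbers of transcripts. GYPC to RHAG is above 0 in all 4 cytoplasmic libraries and at -1.98 or less in every depleted wash and nuclear library, and ANK1 to SPTB is lower in wash than in cytoplasm or nucleus.

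The last comparison asked whether leaving out rRNA depletion changed the wash. None of the 8 members was called between undepleted and depleted wash by edgeR, against 11.1% of 11627 tested genes (7.75% higher and 3.35% lower). By edgeR 3 members had an unadjusted p under 0.05, and DESeq2 called 1. Over all genes DESeq2 called 1538, against 1290 by edgeR. On the scale of the 7 wash libraries, which differs from the one above, SPTB stood at 312, 289 and 375 CPM undepleted and 279, 184, 220.1 and 233 CPM depleted. ANK1 had 386, 375 and 406 CPM undepleted and 314, 267, 289.7 and 307 CPM depleted. Both sets of libraries were apart for these genes. RHAG had 277, 320.0 and 187 CPM undepleted and 311, 341, 406 and 368 CPM depleted, which overlapped.

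The log2 fold changes were 0.51 (SE 0.179, adjusted p = 0.0902) for SPTB, 0.40 (SE 0.143, adjusted p = 0.0934) for ANK1 and -0.45 (SE 0.197, adjusted p = 0.162) for RHAG. With the libraries paired by the prefix of their columns, the same 3 were called, SPTB at 0.61 (adjusted p = 4.48e-06), ANK1 at 0.43 (adjusted p = 0.000395) and RHAG at -0.52 (adjusted p = 0.000182). The same 3 were called within prefix 2, whereas prefix 1 has 1 undepleted library. The paired fit leaves few libraries to estimate the spread, and nuclear wash replicate 1 has no undepleted partner. The share of all genes called with pairing or within prefix 2 is not given here, so these calls have no background beside them. GYPB had 19, 8 and 7 exon counts and DMTN 7, 19 and 14 in the undepleted libraries, too few to place either. No intronic share passed among the 6 members with at least 20 gene-body counts (smallest exact permutation p that 3 libraries against 4 allow, 0.0571). EPB41 (-10.4 points) and SPTB (-6.30 points) were at that smallest p, with undepleted libraries all below the depleted ones, as 23.7% of all genes with introns and enough counts had (2.01% had them all above).

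Other red cell membrane genes were set beside the members. Of 28 further surface genes 23 were tested, and 17 were higher and 1 lower in wash than in cytoplasm, with a median of 1.08, close to the 1.09 of the 4 members, where 0.05 was the median of all genes. ATP2B4, the red cell calcium pump, was at 1.77 (SE 0.118, adjusted p = 4.58e-10) and SLC2A1, the glucose transporter GLUT1, at 1.72 (SE 0.126, adjusted p = 1.59e-09), while SMIM1, the small carrier of the Vel antigen, was the one lower, at -1.02 (SE 0.263, adjusted p = 0.00344). Against the nucleus 19 of the 23 were higher in the wash and 1 lower, led by STOM (stomatin) at 2.46 (SE 0.182, adjusted p = 3.46e-10) and BSG (basigin) at 2.45 (SE 0.127, adjusted p = 3.6e-12). Between nucleus and cytoplasm 6 were higher and 10 lower, with PIEZO1, the mechanosensitive channel, at 0.99 (SE 0.111, adjusted p = 6.26e-08) and XK, the partner of Kell, at -2.06 (SE 0.172, adjusted p = 6.68e-10). XK was thus lower in the nucleus while KEL, to whose product it is bound in red cells, was higher. Over all tested genes, 22.8% were higher and 21.4% lower in wash than in cytoplasm. Against the nucleus 36.7% of all tested genes were higher and 35.4% lower in the wash. Between nucleus and cytoplasm 39.3% were higher and 37.5% lower. No larger share of the 23 was called there than over all genes (76.8%).

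Of 12 further genes listed with the skeleton, all tested, 4 were lower in wash than in cytoplasm and 8 were not called by edgeR, with a median of -0.23. Among the 4 were the flotillins FLOT2 and FLOT1, at -0.87 (SE 0.163, adjusted p = 0.000217) and -0.71 (SE 0.137, adjusted p = 0.000303). These are scaffold proteins of membrane rafts rather than parts of the spectrin network, so the list is wider than the skeleton proper. In the nucleus 9 were lower than in the cytoplasm and 3 were not called, with a median of -1.15. Of all tested genes 21.4% were lower in wash than in cytoplasm and 36.7% were higher in wash than in nucleus. In the nucleus 37.5% of all tested genes were lower than in the cytoplasm. ACTB, the actin of the junctions, was at -3.19 (SE 0.108, adjusted p = 4.49e-15) there, beside SPTB at -0.56. Against the nucleus 8 of the 12 were higher in the wash and 4 were not called, with ACTB at 2.97 (SE 0.107, adjusted p = 6.25e-14) and FLOT2 at 1.73 (SE 0.184, adjusted p = 5.65e-08).

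Of 10 non-erythroid paralogues 7 were tested, and 5 were higher and 0 lower in wash than in cytoplasm (edgeR). Of all tested genes 22.8% were higher and 21.4% lower. The non-erythroid spectrins had the largest changes, SPTBN1 at 4.12 (SE 0.171, adjusted p = 3.95e-13) and SPTAN1 at 3.81 (SE 0.181, adjusted p = 3.13e-12), and both were also higher in the nucleus than in the cytoplasm, at 3.44 (SE 0.166, adjusted p = 2.4e-13) and 3.49 (SE 0.186, adjusted p = 9.38e-13). SPTBN1, the paralogue of SPTB, thus went up between cytoplasm and nucleus where SPTB went down. Against the nucleus 3 of the 7 were higher and 1 lower in the wash, where 36.7% and 35.4% of all tested genes were. By edgeR, ECE1, a relative of KEL, was at 1.27 (SE 0.341, adjusted p = 0.00234). ANK3, a relative of ANK1, was at -0.58 (SE 0.133, adjusted p = 0.000574). GYPE, a neighbour of GYPB, was lower in the nucleus than in the cytoplasm, at -0.58 (SE 0.131, adjusted p = 0.000445), opposite to GYPB. Between undepleted and depleted wash 3 of 22 further surface genes, 1 of the 12 genes listed with the skeleton and 3 of 6 paralogues were called by edgeR. Over all tested genes 11.1% were called. SMIM1 was at 2.00 (SE 0.316, adjusted p = 0.00255) and CD47, a brake on phagocytosis, at -0.79 (SE 0.187, adjusted p = 0.021). EPB41L2, a relative of EPB41, was at 1.31 (SE 0.252, adjusted p = 0.00771).

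The genes most like each member across the 16 depleted libraries were taken as the 2 with the highest Pearson correlation of log2 CPM among 10733 genes averaging 5 CPM or more. The libraries share their fraction and replicate number, so these values describe likeness and were not tested. For RHAG they were DSG2 and CALU (both 0.98). For ANK1 they were PPIB and DCTN1 (both 0.97), for SPTB RRP12 (0.98) and LMAN2 (0.97) and for EPB41 COPG2 and SP1 (both 0.98). For GYPC they were RN7SL2 and SSX1 (both 0.99), for DMTN CMIP and PSMC5 (both 0.96), for KEL PIGG and SLX4 (both 0.97) and for GYPB ZNF433-AS1 (0.96) and VDAC1P8 (0.95).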

How the data were processed

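K562 fractions were compared in 19 libraries. The authors deposited raw read counts per gene, over exons and over whole gene bodies, with 1 column per library and 0 columns left unused. Per the submitters' processing notes, cutadapt 2.5, STAR 2.7.0a, featureCounts 1.6.2 and hg38 were used, with no role stated. Neither annotation release, strand setting nor treatment of shared reads is given in the sources used here. Per the labels' protocols, yeast RNA spike-ins were added, and 1 step, rRNA depletion, was left out for the undepleted wash. The 11 spike-in transcripts stayed out of library sizes and tests.

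Symbols, positions and exon lengths came from GENCODE 29 on GRCh38, which held 57447 of 58051 identifiers by exact match. Libraries were grouped by their titles. Exon counts were tested with edgeR 4.0.16 (quasi-likelihood, R 4.3.3), in 1 fit of the 16 depleted libraries and another of the 7 wash libraries, after filterByExpr (minimum count 10) and TMM scaling. Fold changes under TMM are relative to the typical gene and are not amounts of RNA. P-values were adjusted by Benjamini-Hochberg over all tested genes, with a call at adjusted p below 0.05. The SE is the absolute log2 fold change over the square root of F. Intronic shares were compared by exact two-sided permutation tests (scipy 1.17.1) where every library had at least 20 gene-body counts. On simulated counts the nucleus to cytoplasm fit recovered 61.5% of 2-fold and 91.7% of 4-fold changes over 15182 genes, with 0.0534% false calls. The simulation changed 200 genes, gave all groups the same profile otherwise and used a fixed spread. In the data 76.8% of tested genes were called in this comparison. The simulated rates therefore cannot be taken as those of the real comparison. No pair among 27 replicate pairs held identical counts, and all differed by more than sampling noise (chi-square per degree of freedom 1.20 to 28.0 over genes with 10 or more counts).

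Alternatives were RLE factors, DESeq2 1.42.0, no composition factor, spike-in library sizes, no low-count filter, gene-body counts, removal of mitochondrially encoded and rRNA genes, fits of the 2 groups alone, each column prefix, a replicate block and leaving out each library. The main fits and permutation tests were unpaired. Only for the replicate block were the replicate numbers taken as pairing the libraries. Deviations from group means correlated at 0.158 to 0.554 in every same-numbered pair of depleted libraries. Undepleted libraries were paired by column prefix. Named genes are all members and, of each other list, the 2 called genes with the largest change in each direction at a mean of at least 5 CPM, or some of these. The members and lists were chosen with earlier results of these data known. Of the listed genes, 2 are not reported here. No molecular identifiers are named in the labels, and PCR copies may therefore be among the counts.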

Additional observations from a re-analysis of the deposited data

Results flagged for a closer look

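In 64 groups of 4 libraries (each member's exon level and intronic share in each depleted group), 4 had a library set apart from the other 3 by more than 0.829 of the group's range, a limit that chance passes in about 1 of 20 groups. GYPB stood at 16.03 CPM in nuclear wash replicate 2, against 10.7 to 11.4 CPM in the other 3 wash libraries. Without that library the log2 fold change of GYPB between wash and cytoplasm was 0.50 (edgeR, adjusted p = 0.0341) in place of 0.67. The intronic share of GYPB was 91.2% in nucleus replicate 3, against 89.3 to 89.6% in the others. KEL stood at 95.2 CPM in nucleus replicate 3, against 107 to 109.8 CPM in the others. ANK1 stood at 361 CPM in cytoplasm replicate 3, against 336 to 340.0 CPM in the others.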

How the results depend on the processing

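Over the 8 members and all alternatives run, 141 of 152 values between nucleus and cytoplasm, 141 of 152 between wash and cytoplasm, 131 of 152 between wash and nucleus and 111 of 136 between undepleted and depleted wash kept both direction and side of the threshold. The count of 7 called members between nucleus and cytoplasm ran from 5 to 8, and the 6 between wash and cytoplasm from 5 to 8. Calls over all genes moved too across the other scalings, DESeq2 and gene-body counts. They ran from 12057 to 13931 between nucleus and cytoplasm and from 6960 to 14869 between wash and cytoplasm. The 8 between wash and nucleus became 5 with no composition factor and 4 with gene-body counts, and were 7 to 8 without 1 library. The 0 between undepleted and depleted wash became 1 with DESeq2, 3 with no composition factor, 3 with the replicate block and 3 within column prefix 2, and were 0 to 1 without 1 library (1 without nuclear wash replicate 1). Over all genes 1290 were called in the main fit, 1538 with DESeq2 and 3999 with no composition factor. Calls over all genes with the replicate block, within a prefix or without 1 library are not given here. The replicate block changed no other call of a member. A fit of the 2 groups alone was not run for undepleted against depleted wash, since the main fit holds only these. The 20 intronic shares that passed became 18 at 50 gene-body counts and 0 with the replicate block, since 4 pairs cannot reach the threshold, and ran from 0 to 20 without 1 library, since 3 libraries against 4 cannot reach it either.

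These directions turned. Between nucleus and cytoplasm RHAG was at 0.012 with RLE factors, 0.013 with DESeq2, 0.49 with no composition factor and 0.52 with gene-body counts, and from -0.21 to 0.0042 without 1 library. With no composition factor ANK1 was at 0.16 and SPTB at 0.054, and with gene-body counts EPB41 was at 0.19. With spike-in library sizes, wash against cytoplasm gave -2.46 for GYPB, -1.64 for RHAG, -1.68 for KEL, -2.93 for ANK1, -3.10 for EPB41 and -2.38 for SPTB. On the same scale wash against nucleus gave -0.50 for GYPC, -0.89 for RHAG, -1.84 for ANK1, -1.79 for EPB41, -1.18 for SPTB and -1.57 for DMTN, where the median of all genes was -2.47. With gene-body counts ANK1 was at -0.040 between wash and cytoplasm and EPB41 at -0.19 between wash and nucleus.

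Between undepleted and depleted wash EPB41, at -0.0052 to begin with, was at 0.0084 with RLE factors, 0.0076 with DESeq2, 0.0045 without mitochondrially encoded and rRNA genes and 0.041 within column prefix 2, and from -0.097 to 0.050 without 1 library. With no composition factor GYPB was at -0.22, GYPC at -0.33 and ANK1 at -0.095. GYPC was at -0.021 with spike-in library sizes. GYPB was at -0.024 with gene-body counts and -0.27 within column prefix 2, and from -0.46 to 0.69 without 1 library. Intronic differences near 0 turned too. RHAG between undepleted and depleted wash was at 0.00194 points with the replicate block and from -2.10 to 1.65 without 1 library. Without 1 library RHAG between wash and cytoplasm ran from -2.93 to 0.209 and KEL from -2.05 to 5.403. Apart from the reasons given above, the cause was not tested. Depth limits DMTN in the nucleus (9 to 22 counts) and both DMTN and GYPB in the undepleted wash (7 to 19 counts each).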
